A study of Mus musculus with 6 samples.

Results

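The genes described here make up the working parts of the lysosome: 12 proteases (the cathepsins, legumain and tripeptidyl peptidase 1), 17 other acid hydrolases, their cofactors Psap and Grn, 6 membrane and sterol-handling proteins, the 3 transcription factors Tfeb, Tfe3 and Mitf, and 16 subunits of the vacuolar proton pump. They are listed by name and function, and were chosen with earlier results of these data known. Of the 56 genes listed, 55 were measured among 19937 genes, each read by its probe set with the highest mean over the 6 arrays, and Atp6v0c was not analysed here. The values are log2 intensities from Affymetrix Mouse Gene ST arrays, so a difference of 1 is a 2-fold change.

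The cells were lineage-depleted (Lin-) hematopoietic progenitors of C57BL6 mice carrying Rosa26rtTA, a reverse tetracycline transactivator that acts when doxycycline is present. All of them were cultured without serum. The medium held interleukin 3 at 20 ng/ml, and stem cell factor, interleukin 11 and Flt3 ligand at 50 ng/ml each. The cells were transduced with a lentiviral vector 24 h after isolation, given doxycycline (1 µg/ml) from 24 h after transduction and sorted for EGFP. The vector carried EGFP alone (3 arrays labelled EGFP) or EVI1 with EGFP behind an internal ribosome entry site (3 arrays labelled EVI1), both under a tetracycline-responsive promoter; EVI1, a DNA-binding zinc finger protein, is a product of the gene Mecom. RNA was taken 20 h after doxycycline in the design text and 24 h after it in the protocol. The comparison asks which transcripts differ after about a day of EVI1 induction; the vector dose and the source of each replicate (animal, culture or transduction) are not in the labels, so p-values measure the spread between these arrays.

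The label of the groups rests on the construct names alone, because neither Mecom probe set read higher with the EVI1 vector. The brighter had values of 6.39, 7.53 and 6.86 with EGFP against 6.29, 6.18 and 6.49 with EVI1, a log2 difference of -0.60 ± 0.26 (SE) that did not pass (adjusted p = 0.166 by limma; a two-sided exact permutation test gave p = 0.2, and 3 against 3 arrays allow no p under 0.1). The other probe set differed by -0.23 ± 0.11. The means of the brighter (6.92 and 6.32) and of the other (6.58 and 6.35) lay under the level reached by dim genes (6.95 with EGFP and 6.99 with EVI1, the 95th percentile over 1027 olfactory receptor genes), so these are differences between dim readings, of which EGFP replicate 2 alone (7.53) lay above it. It is unknown whether these probes can detect RNA of the vector, so every direction below is that of the labels. Array medians lay between 7.24 and 7.31, and array weights, lower for noisier arrays, lay between 0.452 (EGFP replicate 2) and 1.55. All 10 measured stem and progenitor markers lay above that level in both groups, while 7 of 11 lymphoid markers lay under it in both groups. All 55 lysosomal genes lay above it in both groups.

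Lysosomes are acidic compartments in which proteases, glycosidases, sulfatases and lipid hydrolases break down material delivered by endocytosis, phagocytosis and autophagy. The vacuolar ATPase keeps them acidic by coupling ATP hydrolysis in its cytosolic V1 sector to proton transport through its membrane V0 sector. Many lysosomal genes carry the CLEAR element in their promoters, a short palindrome bound by TFEB, TFE3 and MITF, and myeloid cells such as macrophages are known for a large lysosomal content.

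Of the 55 lysosomal genes measured, 27 rose in the arrays labelled EVI1, none fell and 28 did not pass (limma, Benjamini-Hochberg adjusted p under 0.05 over all genes), against 9.06% of all genes that rose and 9.18% that fell. At an unadjusted p under 0.05, 35 members were higher and 0 lower, against 2832 and 2870 of all 19937 genes. Later counts at that cutoff are read beside these. Among the 13029 genes above the olfactory receptor level in either group, 13.2% rose and 13.6% fell. The median log2 fold change was 0.49 over the members and 0.006 over all genes. In 48 of 55 members the EVI1 mean was the higher, against 10174 of all 19937 genes. Later counts of higher means are read beside this one. All 3 EVI1 arrays lay above all 3 EGFP arrays for 30 members (16.1% of all genes do so), and below them for 1 member, Galns (16.5% of all genes). In bulk RNA, more cells of a type and more RNA per cell cannot be told apart, and because RMA brings arrays to a common distribution, a change of total RNA per cell does not appear in these values.

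The size of the rise differed widely between members. Legumain (Lgmn), the largest, went up 6.61-fold, and only 5 members rose by at least 2-fold; the others that passed rose by log2 0.42 (Tfe3) to 1.00 (Ctss). The plot of changes by role shows the proteases between -0.01 and 2.72 and the proton pump subunits between -0.25 and 0.94. With same-numbered arrays paired as a replicate block 33 members rose and none fell (10.9% and 11% of all genes), the added ones being Atp6v1a, Fuca1, Gaa, Glb1, Gusb and Lamp1. Leaving out EGFP replicate 3 gave 14 rises, where 6.28% of all genes rose, EVI1 replicate 2 gave 17 (6.37%) and EVI1 replicate 3 gave 15 (5.91%). Without EGFP replicate 1 or EVI1 replicate 1 there were 19 each (7.73% and 6.73%), and without EGFP replicate 2 there were 34 (10.2%).

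**Figure D1:**
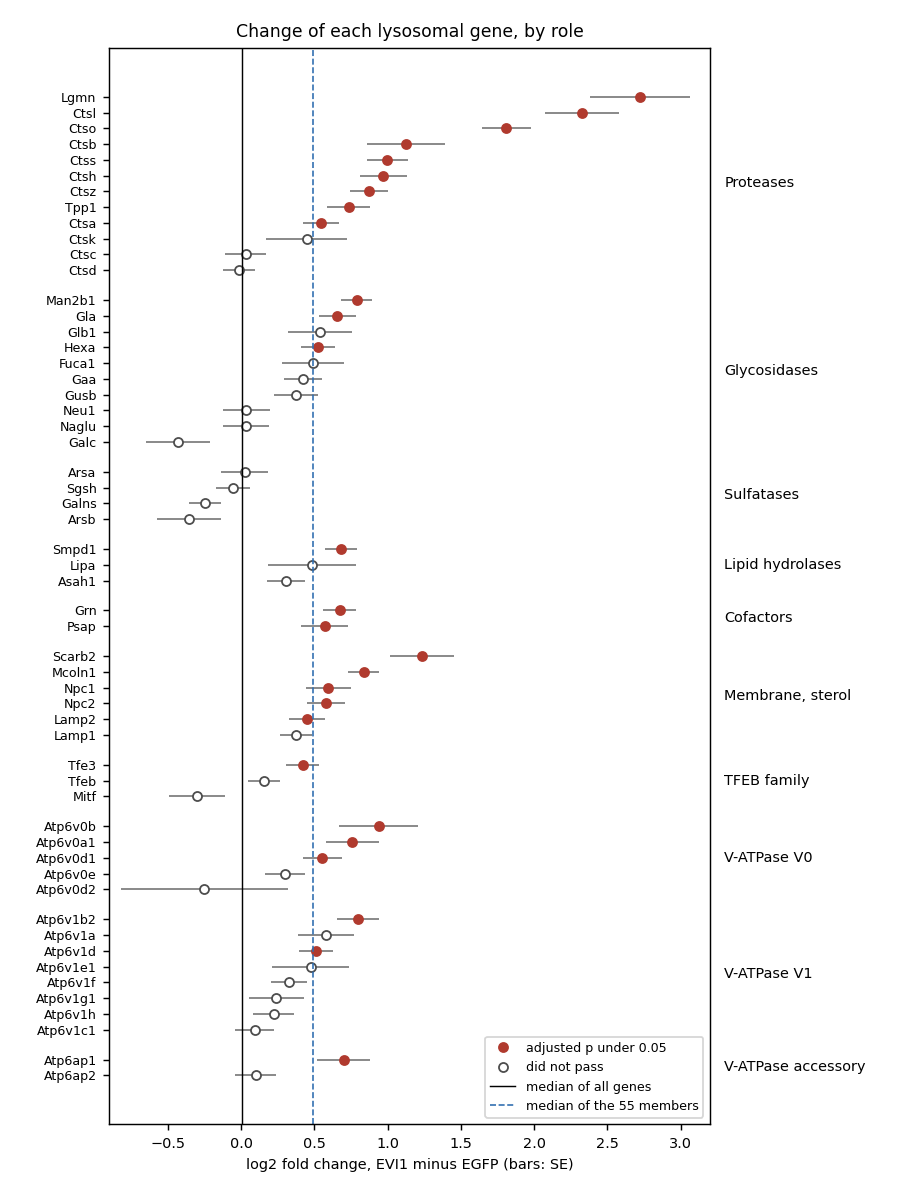
Log2 fold change (EVI1 minus EGFP, 3 arrays each) of the 55 measured lysosomal genes on the horizontal axis, grouped by role; bars are SE, filled points passed at an adjusted p under 0.05 and open points did not. Filled points all lie to the right of 0, from 0.42 (Tfe3) to 2.72 (Lgmn), and none of the 4 sulfatases is filled.

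The promoters of the lysosomal genes were read for the CLEAR element and for 6 other motifs. RefSeq promoter windows of GRCm38.p6, from 250 bases before to 50 bases after an annotated start, were matched by symbol for 46 of the 56 genes, 7 of them with several windows; those without an entry are Asah1, Atp6v0d2, Atp6v1b2, Atp6v1c1, Atp6v1g1, Atp6v1h, Ctsb, Ctsh, Galns and Npc1. The core TCACGTGA, read on both strands, stood in a promoter of 7 of the 46 (15.2%) and of 1.12% of all 27025 genes in the table. The overlapping stretch GTCACGTG stood in 12 of 46 (26.1%, against 2.55%) and the E-box CACGTG, which lies inside both, in 16 of 46 (34.8%, against 8.09%). The share was near that of all genes for the AP-1 motif TGANTCA (10.9% against 8.97%) and the interferon motif GAAANNGAA (10.9% against 9.76%). The GATA motif GATAAG stood in 13.0% of the members against 8.58%, the ETS motif GAGGAAGT in 8.70% against 3.69% and the STAT motif TTCNNNGAA in 4.35% against 9.55%. These matches describe letters in a window, not bound sites.

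The 4 members that rose and hold the core are shown with it in capitals, together with Ctsd, which holds it and did not change, and Lgmn, the largest rise, which holds the stretch GTCACGTG (in capitals) but not the core. The last pair was chosen after the values were seen. The windows are those of Mcoln1 (chr8:3500269-3500568, plus strand), Gla (chrX:134600956-134601255, minus strand), Atp6v0d1 (chr8:105566015-105566314, minus strand), Ctsa (chr2:164833523-164833822, plus strand), Ctsd (chr7:142387778-142388077, minus strand) and Lgmn (chr12:102439043-102439342, minus strand), each printed 5′ to 3′ in the direction of the gene.
Mcoln1: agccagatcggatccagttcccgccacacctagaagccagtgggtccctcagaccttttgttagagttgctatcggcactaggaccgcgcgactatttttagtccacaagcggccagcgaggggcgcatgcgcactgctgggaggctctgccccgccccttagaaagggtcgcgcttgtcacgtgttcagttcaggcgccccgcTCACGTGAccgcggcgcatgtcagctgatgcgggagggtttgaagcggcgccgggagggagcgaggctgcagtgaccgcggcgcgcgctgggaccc
Gla: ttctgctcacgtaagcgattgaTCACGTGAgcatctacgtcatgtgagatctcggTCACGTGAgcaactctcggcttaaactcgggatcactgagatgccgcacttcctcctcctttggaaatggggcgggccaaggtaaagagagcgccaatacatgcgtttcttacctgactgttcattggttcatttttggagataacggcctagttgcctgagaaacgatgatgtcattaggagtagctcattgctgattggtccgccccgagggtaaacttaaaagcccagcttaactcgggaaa
Atp6v0d1: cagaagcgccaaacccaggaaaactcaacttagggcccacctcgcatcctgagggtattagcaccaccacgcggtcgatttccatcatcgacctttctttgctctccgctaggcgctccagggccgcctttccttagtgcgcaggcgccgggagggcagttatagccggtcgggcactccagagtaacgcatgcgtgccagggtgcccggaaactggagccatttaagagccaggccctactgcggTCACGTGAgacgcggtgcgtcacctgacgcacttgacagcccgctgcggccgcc
Ctsa: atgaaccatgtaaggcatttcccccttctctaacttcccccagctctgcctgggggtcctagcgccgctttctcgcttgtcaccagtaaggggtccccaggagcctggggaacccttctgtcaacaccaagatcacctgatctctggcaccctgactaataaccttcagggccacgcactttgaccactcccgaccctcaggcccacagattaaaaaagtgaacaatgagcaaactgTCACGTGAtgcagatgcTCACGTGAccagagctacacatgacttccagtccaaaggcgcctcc
Ctsd: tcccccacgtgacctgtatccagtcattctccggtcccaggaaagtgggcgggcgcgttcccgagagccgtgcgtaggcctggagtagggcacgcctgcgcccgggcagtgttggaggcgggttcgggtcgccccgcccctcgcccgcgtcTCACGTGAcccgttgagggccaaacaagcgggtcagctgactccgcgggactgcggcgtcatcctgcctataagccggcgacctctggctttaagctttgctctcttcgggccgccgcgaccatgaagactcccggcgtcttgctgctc
Lgmn: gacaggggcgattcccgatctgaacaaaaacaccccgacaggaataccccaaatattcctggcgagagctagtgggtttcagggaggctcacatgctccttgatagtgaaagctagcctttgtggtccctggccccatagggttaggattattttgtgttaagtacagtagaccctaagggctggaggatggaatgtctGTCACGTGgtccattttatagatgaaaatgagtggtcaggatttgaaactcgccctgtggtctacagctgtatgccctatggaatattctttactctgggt

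Gla and Ctsa hold the core 2 times, the others with it 1 time, and in Atp6v0d1 it spans the annotated start. Members with and without the element had like medians, a description with no test. Of the 7 members with the core 4 rose (median log2 fold change 0.55), and of the 38 measured members without it 19 rose (median 0.49). Of the 16 with an E-box 7 rose (0.54), and of the 29 without it 16 rose (0.49).

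The proteases held the 3 largest rises: 9 of 12 rose, none fell, and their median log2 fold change was 0.92. Lgmn, an asparaginyl endopeptidase that also processes other cathepsins, read 8.96, 9.53 and 8.05 with EGFP against 11.22, 11.83 and 11.66 with EVI1. All EVI1 arrays lay above all EGFP arrays, and the log2 fold change was 2.72 ± 0.34 (SE, adjusted p = 0.00123). Ctsl, a broad-acting cysteine protease, read 10.26, 10.85 and 9.79 against 12.34, 12.81 and 12.74, a 5.02-fold rise (2.33 ± 0.25, adjusted p = 0.000663). The close relatives Ctsj and Ctsr of the placental cathepsin cluster rose from EGFP means of 5.85 and 5.91, under the olfactory receptor level, to EVI1 means of 11.5 and 10.7, so the size of their rise is not fixed by these values, and hybridisation of their transcripts to the Ctsl probes was not tested. Ctso, a little-studied cysteine cathepsin, read 8.23, 8.57 and 7.94 against 9.90, 10.11 and 10.16, a 3.51-fold rise (1.81 ± 0.17, adjusted p = 0.000353). For Lgmn, Ctsl and Ctso EGFP replicate 2 was the highest EGFP array and replicate 3 the lowest, and no EGFP array reached an EVI1 array.

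Ctsb, an abundant endo- and exopeptidase, read 11.32, 12.20 and 11.04 with EGFP against 12.54, 12.78 and 12.62 with EVI1. EGFP replicate 2 came closest to the EVI1 arrays without reaching them, and the rise of 1.13 ± 0.27 (adjusted p = 0.0204) was 1.47 without that array. Ctss, which degrades the invariant chain of MHC class II, rose just under 2-fold (1.00 ± 0.14, adjusted p = 0.00203), from 11.94, 12.15 and 11.66 to 12.86, 12.89 and 13.01. The aminopeptidase Ctsh (0.97 ± 0.16), the carboxypeptidase Ctsz (0.88 ± 0.13), tripeptidyl peptidase 1 (Tpp1, 0.73 ± 0.15) and Ctsa, the carboxypeptidase that protects neuraminidase and beta-galactosidase (0.54 ± 0.12), rose as well. Ctsa and Ctsb did not pass without replicates 1 or 3 of EGFP or replicates 2 or 3 of EVI1, with adjusted p up to 0.0690 and 0.0774 and log2 fold changes of at least 0.48 and 0.89.

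The other 3 proteases did not pass, and for Ctsd and Ctsc the interval around no change was narrow. Ctsd, the main aspartic protease of lysosomes, read 12.50, 12.65 and 12.42 with EGFP against 12.44, 12.54 and 12.55 with EVI1. The groups overlap, and the difference was -0.01 ± 0.11 (adjusted p = 0.965) with a 95% interval of -0.26 to 0.23. Ctsc, which activates the serine proteases of neutrophil and cytotoxic granules, differed by 0.03 ± 0.14 (interval -0.30 to 0.36). Ctsk, the collagen-degrading cathepsin of osteoclasts, differed by 0.45 ± 0.28 (interval -0.18 to 1.08), with overlapping arrays of 7.47, 6.49 and 7.10 against 7.90, 7.43 and 7.08. Ctsk and Ctss lie side by side in the genome, with 1 predicted gene between them in the RefSeq gene table. Among the 8 measured cysteine cathepsins of the papain family (Ctsb, Ctsc, Ctsh, Ctsk, Ctsl, Ctso, Ctss and Ctsz) 6 rose.

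**Figure D2:**
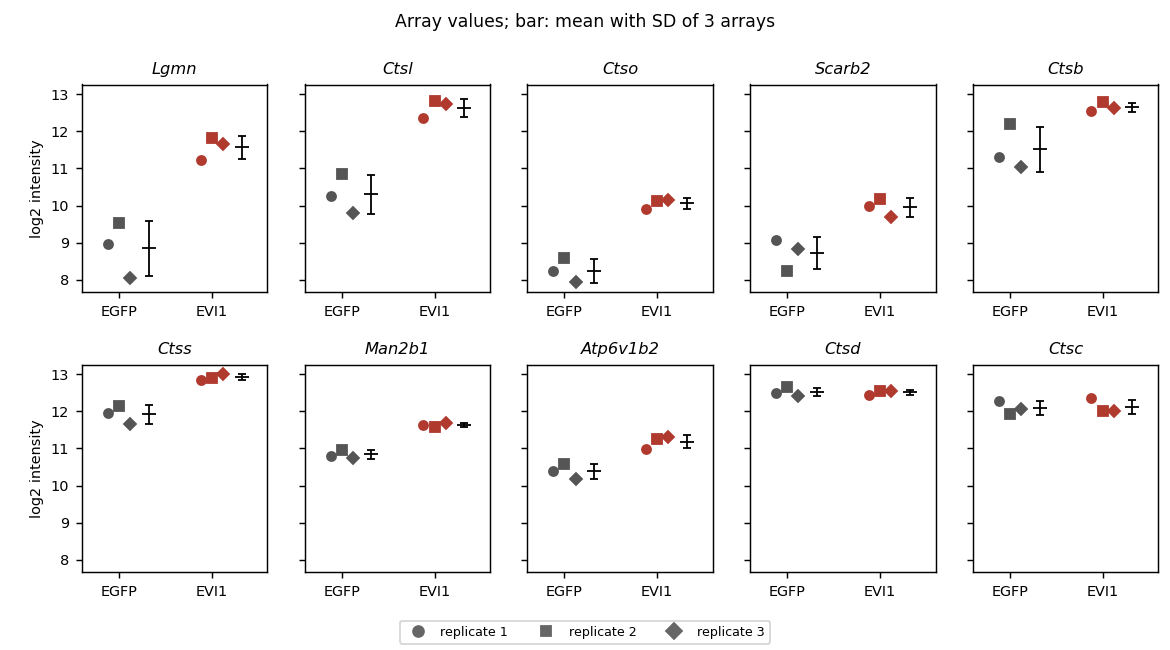
Log2 intensity (vertical axis) of 10 lysosomal genes on each EGFP and EVI1 array, with a marker per replicate number and the mean with SD of 3 arrays as a bar. The groups are apart for Lgmn, Ctsl, Ctso, Scarb2, Ctsb, Ctss, Man2b1 and Atp6v1b2, with Ctsb at 12.20 in EGFP replicate 2, and overlap for Ctsd and Ctsc.

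The hydrolases of sugars, sulfates and lipids gave 4 rises and no fall among 17 genes, with a median of 0.37; at an unadjusted p under 0.05, 9 were higher and 0 lower. Among the 10 glycosidases 3 rose. Man2b1, the acid alpha-mannosidase, read 10.81, 10.97 and 10.74 against 11.63, 11.57 and 11.69, a rise of 0.79 ± 0.11 (adjusted p = 0.00184) with narrow, well separated groups. Gla, the alpha-galactosidase lacking in Fabry disease, read 11.28, 10.99 and 11.08 against 11.62, 11.92 and 11.77 and rose by 0.66 ± 0.13 (adjusted p = 0.00874). Hexa, the alpha subunit of beta-hexosaminidase, rose by 0.53 ± 0.12; without EGFP replicate 3 or EVI1 replicate 2 it did not pass (adjusted p up to 0.0607, log2 fold change at least 0.46).

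A further 4 glycosidases were higher without passing and passed with the replicate block. They were Gaa, the acid alpha-glucosidase of glycogen breakdown (0.42 ± 0.13, adjusted p = 0.0619, 0.0274 with the block), Glb1, the beta-galactosidase (0.54 ± 0.22, 0.143 and 0.0467), Gusb, the beta-glucuronidase (0.37 ± 0.15, 0.141 and 0.0418), and Fuca1, the alpha-fucosidase (0.49 ± 0.21, 0.172 and 0.0400). Neu1, a sialidase, and Naglu, which degrades heparan sulfate, differed by 0.04 ± 0.16 and 0.03 ± 0.16. Galc, which cleaves galactosylceramide, had the lowest value among the members, -0.43 ± 0.22 (adjusted p = 0.255). Without EGFP replicate 2, Glb1 (0.78), Gusb (0.49) and Fuca1 (0.71) passed also.

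None of the 4 sulfatases rose or fell (limma; 0 at an unadjusted p under 0.05), and their median was -0.15. Galns, which acts on keratan and chondroitin sulfate, read 8.12, 8.002 and 8.21 with EGFP against 7.91, 7.94 and 7.74 with EVI1, lower on every EVI1 array (-0.25 ± 0.11, adjusted p = 0.194). Arsb, which acts on dermatan and chondroitin sulfate, read 9.79, 8.96 and 9.60 against 9.06, 9.34 and 8.88 (-0.35 ± 0.22, adjusted p = 0.372), with overlap through EGFP replicate 2. Without that array Arsb differed by -0.60 and passed (adjusted p = 0.0286), the only fall of a member among the 15 fits run. The other Arsb probe set differed by -0.39 ± 0.31. Arsa (0.02 ± 0.16) and Sgsh (-0.05 ± 0.12) had intervals of -0.34 to 0.39 and -0.32 to 0.22.

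Of the 3 lipid hydrolases Smpd1, the acid sphingomyelinase, rose, from 8.86, 8.85 and 8.90 to 9.44, 9.70 and 9.53 (0.68 ± 0.11, adjusted p = 0.00352). Its EGFP arrays lay close together and far below the EVI1 arrays. Asah1, the acid ceramidase, read 10.72, 10.57 and 10.41 against 10.85, 11.05 and 10.72 (0.31 ± 0.13, adjusted p = 0.163), with the lowest EVI1 array just above the highest EGFP array. Lipa, the acid lipase of cholesteryl esters, differed by 0.49 ± 0.30 (adjusted p = 0.365), with 11.63 in EGFP replicate 2 among EVI1 values of 11.16, 11.85 and 11.35; without that array it passed (0.82, adjusted p = 0.0311). Both cofactors rose. Grn, which encodes progranulin, read 11.78, 11.78 and 11.55 against 12.28, 12.42 and 12.43 (0.67 ± 0.11, adjusted p = 0.00468). Psap, the precursor of the saposins that present lipids to hydrolases, read 11.60, 11.80 and 11.21 against 12.17, 12.19 and 11.97 (0.57 ± 0.16, adjusted p = 0.0407). The groups of both genes were apart on all arrays. Psap did not pass without any single array other than EGFP replicate 2, nor with arrays centred on their medians, with adjusted p up to 0.128 and a log2 fold change of at least 0.41.

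Among the 6 membrane and sterol-handling genes 5 rose, none fell, and the EVI1 arrays lay above the EGFP arrays for all 6. Scarb2 (LIMP-2), the membrane receptor that carries glucocerebrosidase to lysosomes, read 9.07, 8.24 and 8.83 against 9.99, 10.18 and 9.68, a 2.36-fold rise (1.24 ± 0.22, adjusted p = 0.00607). Here EGFP replicate 2 was the lowest EGFP array, unlike in most members. Mcoln1, the calcium channel TRPML1, read 9.81, 9.68 and 9.74 against 10.70, 10.54 and 10.51 (0.84 ± 0.11, adjusted p = 0.00126). The cholesterol exporters Npc1 (0.60 ± 0.15) and Npc2 (0.58 ± 0.13), which pass sterol from one to the other, rose by like amounts, and the membrane glycoprotein Lamp2 by 0.45 ± 0.12. Its relative Lamp1 read 11.88, 12.09 and 11.89 against 12.26, 12.43 and 12.29 and just missed (0.37 ± 0.11, adjusted p = 0.0521); it passed with the replicate block (0.0323). Npc1 lost its call without any single array other than EGFP replicate 2, Npc2 without EGFP replicate 3 or any EVI1 array, and Lamp2 without any single array other than EGFP replicate 1 and after a further quantile normalisation. Their adjusted p reached 0.103, 0.0602 and 0.124, at log2 fold changes of at least 0.49, 0.47 and 0.36.

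Of the 3 transcription factors that bind the CLEAR element 1 rose and none fell. Tfe3 went from 8.15, 8.25 and 7.97 to 8.58, 8.57 and 8.48 (0.42 ± 0.11, adjusted p = 0.0334), a call lost without any single array other than EGFP replicate 2 (adjusted p up to 0.114, log2 fold change at least 0.35). Tfeb, named for its control of lysosome formation, read 7.22, 7.46 and 7.25 against 7.48, 7.50 and 7.43 and did not pass (0.16 ± 0.11, adjusted p = 0.434, interval -0.09 to 0.40). Mitf, best known from melanocytes, mast cells and osteoclasts, read 7.78, 7.35 and 7.27 against 7.51, 6.93 and 7.06 (-0.30 ± 0.19, adjusted p = 0.381), with overlapping groups. The other Mitf probe set differed by 0.08 ± 0.27, with means under the olfactory receptor level (4.36 with EGFP and 4.45 with EVI1). These factors are controlled in large part by phosphorylation and movement to the nucleus, which RNA arrays do not read.

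Of the 15 measured proton pump genes 6 rose, none fell, and 14 had the higher mean in the EVI1 arrays, with a median of 0.47. In the V0 sector 3 of 5 rose. Atp6v0a1, an isoform of the large subunit that steers the pump to membranes, read 10.58, 10.21 and 9.97 against 11.26, 10.81 and 10.98 (0.76 ± 0.18, adjusted p = 0.0205). Atp6v0d1, which couples the sectors, read 9.94, 9.86 and 9.59 against 10.51, 10.22 and 10.32 (0.55 ± 0.13, adjusted p = 0.0217). Both genes were higher on every EVI1 array. Atp6v0b, a subunit of the proton-carrying ring, read 10.05, 10.92 and 9.96 against 10.87, 11.41 and 11.48 (0.94 ± 0.27, adjusted p = 0.0454), and EGFP replicate 2 lay above the lowest EVI1 array. Atp6v0e differed by 0.30 ± 0.14 (adjusted p = 0.196). Atp6v0d2, the isoform of osteoclasts and macrophages, was the most variable member, at 7.999, 7.53 and 6.67 against 7.73, 7.97 and 5.74 (-0.25 ± 0.57), so its interval runs from -1.56 to 1.06.

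In the V1 sector 2 of 8 rose and all 8 had the higher mean in the EVI1 arrays. Atp6v1b2, the B subunit isoform found in most tissues and part of the ATP-binding ring, read 10.40, 10.58 and 10.17 against 10.98, 11.27 and 11.30 (0.80 ± 0.14, adjusted p = 0.00628). Atp6v1d, in the rotating stalk, read 10.79, 10.94 and 10.63 against 11.40, 11.21 and 11.30 (0.51 ± 0.12, adjusted p = 0.0193). The catalytic subunit Atp6v1a was higher by 0.58 ± 0.19 without passing (adjusted p = 0.0721), and passed with the replicate block (0.0176). The stalk and regulatory subunits Atp6v1e1 (0.47 ± 0.26), Atp6v1f (0.33 ± 0.13), Atp6v1g1 (0.24 ± 0.19), Atp6v1h (0.22 ± 0.14) and Atp6v1c1 (0.09 ± 0.13) did not pass. Without EGFP replicate 2, Atp6v1a (0.77), Atp6v1e1 (0.79) and Atp6v1g1 (0.47) passed. The other probe sets of Atp6v1f and Atp6v1g1 differed by 0.07 ± 0.10 and 0.35 ± 0.32. Of the accessory subunits Atp6ap1 rose, from 11.28, 11.67 and 11.03 to 11.78, 12.16 and 12.15 (0.70 ± 0.18, adjusted p = 0.0306), while Atp6ap2, also known as the prorenin receptor, read 10.06, 9.70 and 9.67 against 9.99, 9.998 and 9.76 (0.10 ± 0.14, adjusted p = 0.746).

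Leaving out single arrays ended 5 of the 6 pump calls. Atp6v0a1 and Atp6v0d1 did not pass without EGFP replicate 3, EVI1 replicate 1 or EVI1 replicate 3, Atp6v1d without those or EGFP replicate 1, and Atp6ap1 and Atp6v0b without replicates 1 or 3 of EGFP or replicates 2 or 3 of EVI1. Their adjusted p reached 0.0718, 0.0831, 0.0772, 0.122 and 0.171, with log2 fold changes of at least 0.62, 0.45, 0.43, 0.55 and 0.76. Atp6v0b also lost its call with arrays centred on their medians. Atp6v1b2 passed in all 14 alternatives.

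The spread of the members within the groups had a pattern of its own. Averaged over the 55 genes, the arrays stood at 9.94, 10.06 and 9.71 (EGFP) and 10.39, 10.51 and 10.37 (EVI1), so the lowest EVI1 array was above the highest EGFP array and the group means differed by 0.52. EGFP replicate 2 was the highest EGFP array for 35 of 55 members (63.6%, against 32.7% of all genes), and EGFP replicate 3 the lowest for 35 (63.6%, against 25.2%). EVI1 replicate 2 was the highest EVI1 array for 32 members (58.2%, against 29.7%). The SD was larger among the EGFP arrays for 44 of 55 members (80%, against 58.7% of all genes). These shares describe 6 arrays and were noticed in the data.

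**Figure D3:**
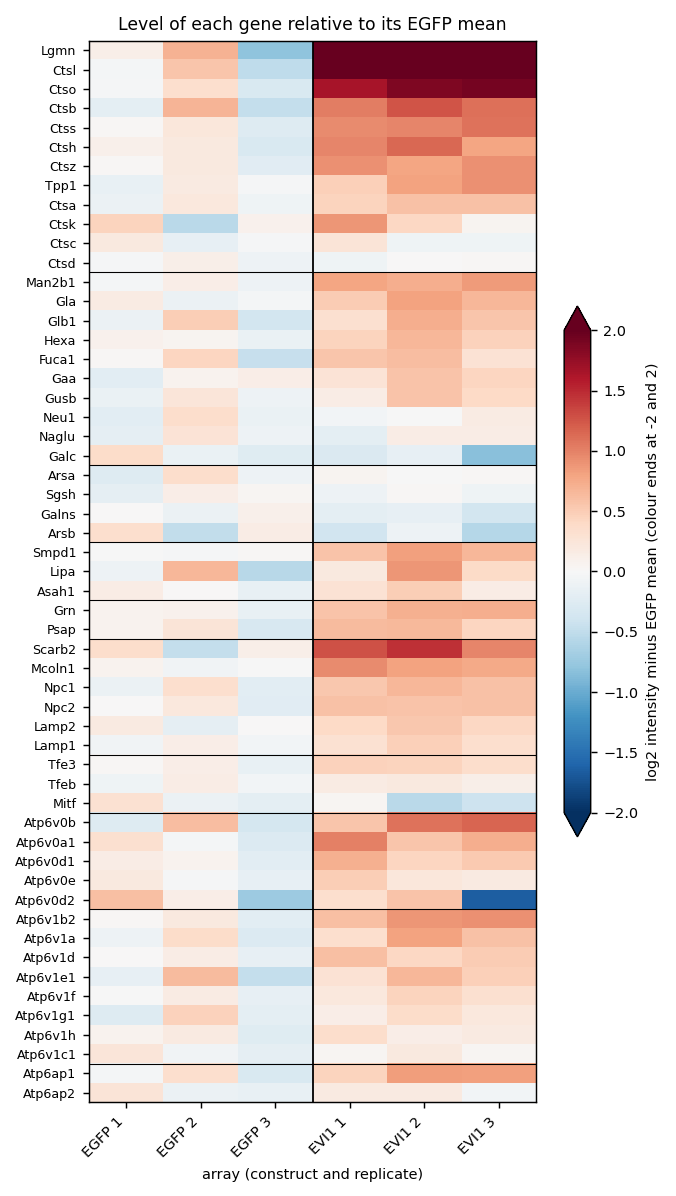
Log2 intensity of each of the 55 genes on each of the 6 arrays minus the gene's EGFP mean, as colour (red higher, blue lower), with genes in rows by role and arrays in columns. The EVI1 columns are red for most rows, EGFP replicate 2 is the redder EGFP column (highest for 35 of 55 genes) and EGFP replicate 3 the bluer (lowest for 35).

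Lists of lysosomal genes outside the 56 differed in how many of their genes rose, and are read beside the 9.06% of all genes and the 13.2% of genes above the olfactory receptor level that rose. Of 26 other hydrolases and activators 9 rose (34.6%) and 1 fell. Naaa, which hydrolyses fatty acid ethanolamides, rose by 3.61 ± 0.14, the serine carboxypeptidase Scpep1 by 1.25 ± 0.15, and Acp5, the tartrate-resistant acid phosphatase, by 0.65 ± 0.10. The fall was Ctsg (-2.55 ± 0.23), a serine protease of neutrophil granules. Of 34 genes listed as other lysosomal membrane proteins 12 rose (35.3%) and none fell (16 higher and 2 lower at an unadjusted p under 0.05). With the replicate block 15 rose and 2 fell, Slc11a2 and Plin2, the latter a lipid droplet protein. Among the 12 were Laptm4b (1.38 ± 0.11), the sialic acid exporter Slc17a5 (0.82 ± 0.13), Cd68 (1.16 ± 0.19) and the chloride-proton exchanger Clcn7 (1.42 ± 0.24). Of 18 further pump subunits and assembly factors 1 rose (5.56%), Tcirg1 (0.41 ± 0.11), which encodes the V0 a3 isoform of osteoclasts and other hematopoietic cells, and 1 fell, the pump regulator Dmxl2 (-1.37 ± 0.28). Another 13 of them had a higher mean in the EVI1 arrays without passing. None rose without EGFP replicate 3 or any EVI1 array, with arrays centred on their medians or with trend and robust variances, and 3 rose with array weights.

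Genes of autophagy, which delivers cell contents to the lysosome, rose in 14 of 29 cases and fell in none (19 higher and 1 lower at an unadjusted p under 0.05), with a median of 0.53. The count was 9 without EGFP replicate 3, EVI1 replicate 1 or EVI1 replicate 2. Examples are the cargo receptor Sqstm1 (p62, 1.28 ± 0.17), the initiation factor Atg13 (0.91 ± 0.11), Map1lc3b (LC3B, 0.76 ± 0.12), a membrane-bound tag of autophagosomes, and Atg5 (0.72 ± 0.11), needed to attach it. Of 31 genes of sorting to the lysosome 4 rose and none fell (8 higher and 1 lower at an unadjusted p under 0.05): the adaptor Gga2 (1.12 ± 0.13), Vps41 (0.65 ± 0.12) and Rab7 (0.54 ± 0.12) of lysosome fusion, and the mannose 6-phosphate receptor Igf2r (0.38 ± 0.11). That share, 12.9%, is near the 13.2% of genes above the olfactory receptor level. With the replicate block 3 rose, Igf2r no longer passing (adjusted p = 0.0522), and Rab7b fell (-0.60, with an SE of 0.22 in the fit without the block). Without replicates 1 or 3 of EGFP or replicate 3 of EVI1 the count was 2. Of 29 genes of nutrient sensing at the lysosome and control of TFEB 5 rose (17.2%) and none fell. At an unadjusted p under 0.05, 9 were higher and 1 lower. The share is not far above the 13.2% of genes above the olfactory receptor level. With the replicate block 8 rose. Without any single array other than EGFP replicate 2 the count was 2 or 3, where 5.91% to 7.73% of all genes rose. The 5 include the Rag GTPases Rragd (2.29 ± 0.21) and Rragb (0.83 ± 0.10), the repressor Zkscan3 (0.46 ± 0.12) and the scaffold subunit Lamtor3 (0.51 ± 0.13). The EGFP mean of Rragd lay under the olfactory receptor level.

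Inhibitors of lysosomal and granule proteases went both ways, with 4 rises and 6 falls among 14. The cystatins Cst3 (0.89 ± 0.17) and Cstb (0.75 ± 0.14) and the serpin Serpinb6a (2.17 ± 0.26) rose, while Cst7 (cystatin F, -1.66 ± 0.18), Ctla2a (-1.87 ± 0.33), which resembles a cathepsin propeptide, and Serpinb1a (-2.59 ± 0.20), an inhibitor of neutrophil elastase, fell. Over all these lists 49 of 181 genes rose and 8 fell, against 9.06% and 9.18% of all genes. The plot of list shares sets these beside the members.

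**Figure D4:**
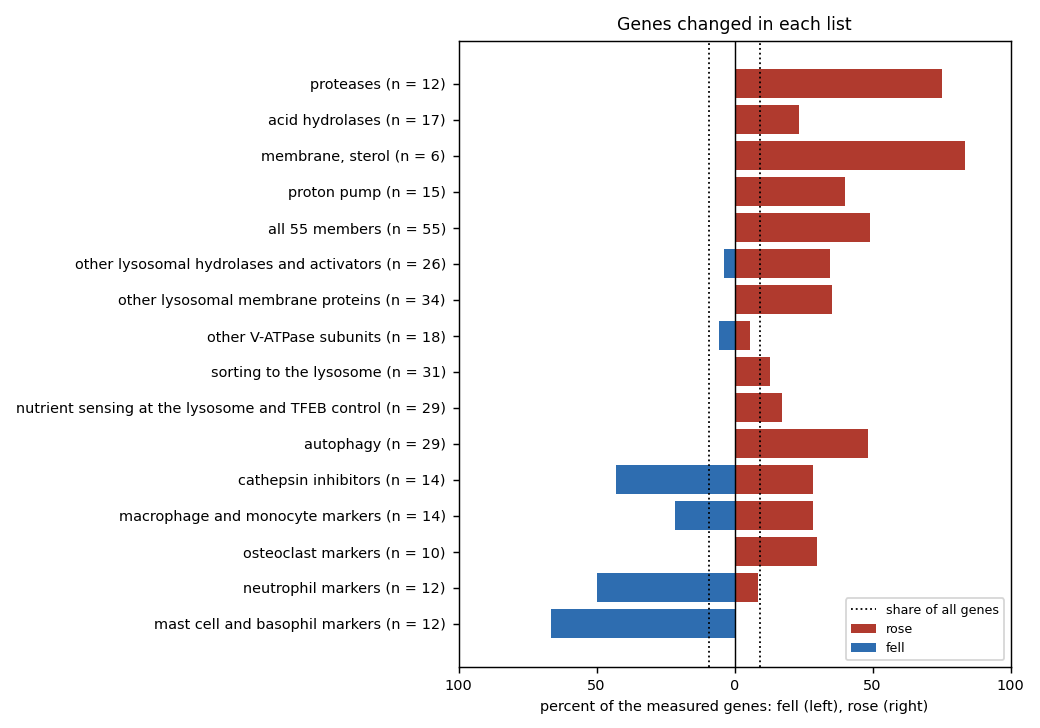
Percent of the measured genes of each list that rose (right, red) or fell (left, blue) between the EVI1 and EGFP arrays at an adjusted p under 0.05; dotted lines mark the shares of all genes, 9.06% up and 9.18% down. Of the lists drawn, the membrane and sterol genes (5 of 6) and the proteases (9 of 12) extend farthest to the right, and mast cell (8 of 12) and neutrophil markers (6 of 12) farthest to the left.

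Markers of the cell types that a progenitor culture can hold were read beside the 9.06% of all genes that rose and the 9.18% that fell. Among genes above the olfactory receptor level those shares were 13.2% and 13.6%. Of 14 macrophage and monocyte markers 4 rose, Mertk (2.91 ± 0.21), Cd68 (1.16 ± 0.19), Mpeg1 (1.21 ± 0.21) and Mrc1 (0.99 ± 0.23), and 3 fell, Ccr2 (-2.36 ± 0.40), Csf1r (-1.16 ± 0.27) and Cd14 (-0.85 ± 0.25); with the replicate block 5 fell, Adgre1 and Fcgr1 being added. The EGFP means of Mertk (6.45), Mmp9 (6.93) and Ly6g (6.10), named here and below, lay under the olfactory receptor level. The mean level of the list was 8.23 to 8.63 in the EGFP arrays and 8.33 to 8.66 in the EVI1 arrays, with C1qc, Marco and Vsig4 under the olfactory receptor level in both groups. Of 10 osteoclast markers 3 rose, Itgb3 (1.34 ± 0.15), Mmp9 (1.92 ± 0.27) and Acp5 (0.65 ± 0.10), and none fell (4 higher and 0 lower at an unadjusted p under 0.05). Their mean was 7.72 to 7.89 against 8.21 to 8.46, with Calcr and Dcstamp under that level in both groups. Acp5 and Cd68 also stand in the lysosomal lists above.

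Mast cell and basophil markers fell for 8 of 12 genes and rose for none (0 higher at an unadjusted p under 0.05), for example Ms4a2 (-2.46 ± 0.20) and Cpa3 (-1.27 ± 0.17), and their mean lay between 9.36 and 9.72 in the EGFP arrays and between 8.44 and 8.52 in the EVI1 arrays. Neutrophil markers fell for 6 of 12, for example Elane (-2.29 ± 0.18) and Mpo (-2.55 ± 0.26), and rose for 1, Ly6g (2.59 ± 0.36), with a mean of 9.82 to 10.5 against 8.57 to 9.29. With the replicate block 8 neutrophil markers fell and 2 rose. Of 10 stem and progenitor markers 1 rose and 5 fell, of 12 dendritic cell markers none rose and 4 fell, of 7 erythroid markers 2 rose and none fell, and of 11 lymphoid markers none rose and 2 fell. At an unadjusted p under 0.05, 2 dendritic and 1 lymphoid marker were higher and 1 erythroid marker was lower, and with the replicate block 1 dendritic marker, Cd74, rose. The part of these cell types in the lysosomal values was not tested.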

How the data were processed

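The authors deposited log2 intensities, 1 value per probe set and array, which the submitters' processing notes credit to RMA. The sources used here name neither its version nor the probe set definitions. No rescaling or filter was applied. Precision is limited by the number of arrays, 3 per group. The platform annotation gives 1 symbol for 21640 of 34760 probe sets and several for 1321; 11799 were unnamed here. Each of the 19937 genes is read by its probe set with the highest mean over 6 arrays.

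Genes were compared with limma 3.58.1 (lmFit, eBayes; R 4.3.3), two-sided, with Benjamini-Hochberg adjustment over all genes and a threshold of 0.05. Log2 fold changes are EVI1 minus EGFP, with SE and 95% intervals from that fit; SD is over 3 arrays. The fit was also run on simulated data. The simulated arrays were independent, so that run does not cover the shared deviations of same-numbered arrays described below. Array values are given for members that changed at least 2-fold, otherwise for the 2 with the smallest p of a role, and for Ctsd, Lamp1 and Tfeb; those of Ctss, Ctsk, Lipa, Atp6v0b and Atp6v0d2 were added after their values were seen. Of other lists the up to 4 genes with the smallest p were to be named; Acp5, Cst3, Cstb, Ctsg, Tcirg1, Dmxl2, Igf2r and the marker genes beyond that rule, as well as Ctsj, Ctsr, Slc11a2, Plin2 and Rab7b, were named after their values were seen. Members and lists were chosen with earlier results of these data known.

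Same-numbered EVI1 and EGFP arrays deviated together from their group means (r = 0.491, 0.269 and 0.197 across genes for replicates 1, 2 and 3), so a fit with the replicate number as a block was read beside the unpaired fit. Other alternatives were a further quantile normalisation, median centring, 2 filters on dim genes, the mean of a gene's probe sets, trend and robust variance estimation, array weights, and leaving out each array. Protein sequences were not used here.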

Additional observations from a re-analysis of the deposited data

How the results depend on the processing

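The direction of the 27 members that rose was kept in all 14 alternatives, and 14 of them passed in every one: Lgmn, Ctsl, Ctso, Ctss, Ctsz, Ctsh, Tpp1, Man2b1, Gla, Smpd1, Grn, Mcoln1, Scarb2 and Atp6v1b2. In the alternatives that kept all 6 arrays 25 to 33 members rose and none fell. Leaving out 1 array gave 14 to 34 rises and 0 to 1 falls among the members and a member median of 0.43 to 0.59. It gave 2289 to 4098 changed genes (1179 to 2037 up, 1110 to 2061 down), and 35 to 53 rises and 6 to 10 falls in the other lists. The Mecom difference was then -0.87 to -0.30. The 3-array means of Mecom lay under the olfactory receptor level in both groups. The difference of -0.87 was that without EGFP replicate 1 and passed (limma adjusted p = 0.0306). The EGFP readings left in that fit were 7.53, above that level (6.95 with EGFP), and 6.86, under it. Pairing the arrays by the replicate block gave 2172 genes up and 2189 down, 33 rises among the members, and 57 rises and 11 falls in the other lists; it ended no call of a member and, among the other genes named, that of Igf2r. The 8 falls of the other lists became 5 without genes under the median level, where fewer genes were tested. The median of all genes stayed between -0.02 and 0.02 in these fits. In the unpaired fit the smallest change called among the members was 0.42 on the log2 scale; with the block it was 0.37 (Lamp1 and Gusb).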
